A study of Mus musculus with 12 samples.

Results

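The 7 genes described here encode the paired coactivators YAP (Yap1) and TAZ (Wwtr1), the DNA-binding proteins TEAD1 to TEAD4 (Tead1, Tead2, Tead3 and Tead4) and the TEAD cofactor VGLL4 (Vgll4). They were taken by symbol from the gene names of the deposited expression table, which lists 15672 genes and holds all 7 of them. The table holds 12 RNA-seq libraries of mouse tumour tissue that the labels call MB, read here as medulloblastoma, a tumour of the cerebellum. All tumours were sampled at end point and carried fSMO-M2, a Cre-activated allele of the constitutively active Hedgehog transducer Smoothened, together with hGFAPcre, Cre recombinase under the human GFAP promoter. The 6 YSGr libraries (fYap1;fSMO-M2;hGFAPcre, described as rescued) carried a floxed Yap1 allele besides, and the 6 SG libraries (fSMO-M2;hGFAPcre) did not. YSGr libraries 7 to 9 were male and 10 to 12 female, and SG libraries 1 to 3 were male and 4 to 6 female. The sources used here give no ages, no number of floxed Yap1 copies, no account of what was rescued and no word on pooling of tissue. The human GFAP promoter drives Cre in neural stem and progenitor cells and their descendants, so that vessel, meningeal and immune cells in the tissue keep the floxed allele intact. The series title asks about sex differences in the function of Yap1.

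YAP and TAZ do not bind DNA themselves. They enter the nucleus when the Hippo kinases are inactive, bind a TEAD protein on its target sites and switch on genes of growth, adhesion and the cytoskeleton. VGLL4 binds TEAD proteins at the same surface and thereby competes with YAP and TAZ. In the cerebellum, YAP is known as a factor that Sonic hedgehog raises in granule neuron progenitors, the cells from which Hedgehog-driven medulloblastoma arises.

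Promoters of the members are shown because TEAD proteins are known to bind the letters GGAATG, which makes the genes of their own circuit candidates for holding these letters. Read from the other strand the motif is CATTCC, and matches on both strands were counted. RefSeq promoter windows on GRCm38.p6, from 250 bases before to 50 after each start, were found for 5 of the 7 members, Yap1, Wwtr1, Tead2, Tead3 and Vgll4. Stretches of 150 bases, from 200 to 51 bases before the start, are given 5′ to 3′ on the gene's own strand, with any match to the motif in capitals and, for genes with several starts, the first start listed.
Yap1, chr9:8004647-8004796, minus strand: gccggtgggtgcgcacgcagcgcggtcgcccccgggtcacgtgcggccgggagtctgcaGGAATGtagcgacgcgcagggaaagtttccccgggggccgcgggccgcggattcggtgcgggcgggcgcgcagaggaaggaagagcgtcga
Wwtr1, chr3:57575961-57576110, minus strand: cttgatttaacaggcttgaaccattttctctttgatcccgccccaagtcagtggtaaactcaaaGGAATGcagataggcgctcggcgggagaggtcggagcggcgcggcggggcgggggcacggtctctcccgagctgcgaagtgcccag
Tead2, chr7:45215592-45215741, plus strand: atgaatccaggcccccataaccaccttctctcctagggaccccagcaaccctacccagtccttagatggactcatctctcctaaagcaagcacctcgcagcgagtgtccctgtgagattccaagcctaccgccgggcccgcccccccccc
Tead3, chr17:28350856-28351005, minus strand: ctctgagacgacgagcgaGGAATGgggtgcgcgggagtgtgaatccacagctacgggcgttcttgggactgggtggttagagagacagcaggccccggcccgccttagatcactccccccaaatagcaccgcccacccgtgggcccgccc
Vgll4, chr6:114969254-114969403, minus strand: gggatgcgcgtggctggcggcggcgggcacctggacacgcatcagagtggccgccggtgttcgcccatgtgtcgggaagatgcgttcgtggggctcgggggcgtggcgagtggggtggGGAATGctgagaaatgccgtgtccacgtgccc
The GGAATG began 141 bases before the start of Yap1, 136 before that of Wwtr1, 182 before that of Tead3 and 82 before that of Vgll4. In all, 4 of these 5 genes held the letters on either strand somewhere in their windows, and Tead2 did not. The same letters were in the windows of 16.6% of all 27025 genes with RefSeq promoter windows and of 14.5% of the 11045 genes that were also tested for expression. A match of 6 letters is a description of the sequence and not a measured site.

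Expression was deposited as log2 CPM, the log2 of reads scaled to the size of the library with a small prior count added, and estimated reads per gene were recovered from the steps between values. Libraries held 8854767 to 9478651 estimated reads. Granule neuron progenitor markers such as Atoh1 and Barhl1 were present in every library, with all 15 listed genes above 0 reads and summed levels of 4049 to 6853 CPM in YSGr and 5851 to 6453 CPM in SG. A pair of libraries stood apart in a principal component analysis, YSGr male 8 at 74.5 on the first component (38.3% of the variance) and SG male 2 at 57.0 on the third (12.3%). YSGr female 12 lay among the SG libraries on the first component, at -23.5 (SG -44.5 to -12.3, other YSGr 6.99 to 74.5), and with YSGr female 10 farthest down the second, at -45.5 and -42.5. Without YSGr female 12 no call on a single gene of the 7 changed, while calls on pairs of TEAD genes did, as given below. In the average over the sexes 2087 genes then passed. Calls that end without any of these libraries are given with and without it. Nothing in the labels says that the libraries came from separate animals, so the p-values speak only of the spread among these libraries, part of which may be technical. In bulk tissue, fewer cells of a type and less RNA per cell cannot be told apart.

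Averaged over the sexes, Yap1, Wwtr1, Tead2 and Tead3 fell in YSGr tumours, while Tead1, Tead4 and Vgll4 did not pass the test. Yap1 was 12.3-fold lower by CPM, and Wwtr1, Tead2 and Tead3 stood at 53.0%, 60.0% and 66.5% of their SG levels. Thus 4 of the 7 members passed downward and 0 upward (5 and 0 at an unadjusted p under 0.05, 4 and 0 with limma-voom on the estimated reads), against 5.27% of all 14147 genes tested passing downward and 6.16% upward (limma on log2 CPM, Benjamini-Hochberg adjusted p under 0.05). The median log2 fold change of the 7 was -0.58, beside a median of -0.005 over all genes tested. All 6 YSGr libraries lay below all 6 SG libraries for 3 members, Yap1, Tead2 and Tead3, a pattern that 2.96% of all genes tested showed. The opposite pattern was seen for 0 members and 2.93% of all genes. Yap1 is the targeted gene, so its fall was set by the design, and it is part of these counts and of the median. A gene entered the test with log2 CPM above 0 in at least 3 libraries, and Tead4 entered only through YSGr, with 3 YSGr and 0 SG libraries above that level.

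**Figure D1:**
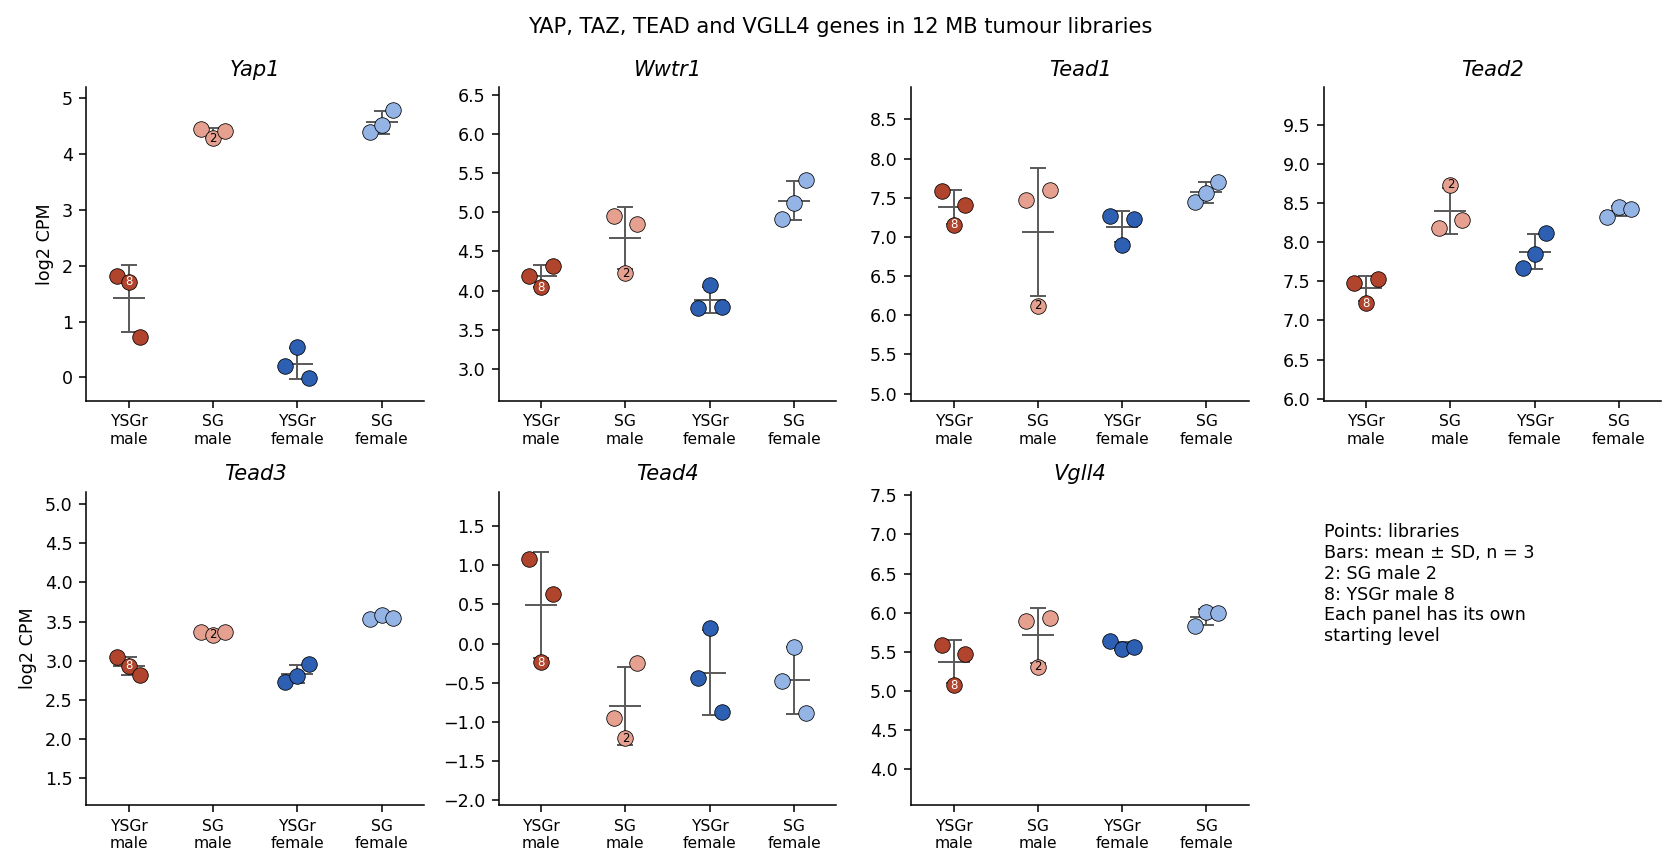
Log2 CPM of each of the 7 genes in the 12 libraries, by genotype and sex; points are libraries and bars the mean ± SD of 3. The Yap1 panel spans a wider range than the others: its 6 YSGr points sit at or below 1.82 and its 6 SG points at or above 4.29, while in the Tead1 panel SG male 2, at 6.12, is the point that stands apart.

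Yap1 (ENSMUSG00000053110.13, chromosome 9, 7931999 to 8004596, minus strand, mm10) is the targeted gene and served as the check of the labels. It had 33, 29 and 14 estimated reads in YSGr males 7, 8 and 9 and 9, 12 and 7 in YSGr females 10, 11 and 12, against 211, 174 and 201 in SG males 1, 2 and 3 and 205, 208 and 253 in SG females 4, 5 and 6. Every YSGr library was far below every SG library, and the YSGr females were below all YSGr males. On the log2 CPM scale the level was 0.83 ± 0.77 in YSGr and 4.48 ± 0.18 in SG (SD, n = 6 each), a log2 fold change of -3.64 ± 0.20 (SE, limma adjusted p = 1.1e-06). Each value counts the whole gene, and from which exons the reads left in YSGr came is not recorded in the table. By CPM, YSGr tumours kept 8.10% of the SG level, 12.6% in males and 4.17% in females. The genes that flank Yap1 on chromosome 9 gave no call with limma, with 0 of 5 tested passing in either direction and 1 of 5 higher at an unadjusted p under 0.05. Tmem123, which encodes a cell surface mucin, had a log2 fold change of -0.31 (limma adjusted p = 0.20), which passed without SG male 2 (-0.44, adjusted p = 0.033), and Birc2, an inhibitor of apoptosis, one of 0.12 (adjusted p = 0.48).

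Wwtr1 (ENSMUSG00000027803.14, chromosome 3, 57455649 to 57575910, minus strand) encodes TAZ, the paralog that shares most of YAP's partners, and its own gene was not targeted. It had 179, 153 and 191 estimated reads in YSGr males and 129, 160 and 123 in YSGr females, against 299, 166 and 271 in SG males and 295, 316 and 386 in SG females. On the log2 CPM scale, 5 of the 6 YSGr libraries lay below all SG libraries. YSGr male 9, at 4.32, was above SG male 2, at 4.22, and below the other SG libraries, at 4.84 to 5.41. The log2 fold change was -0.88 ± 0.15 (SE, limma adjusted p = 0.0025), with means of 4.03 ± 0.21 in YSGr and 4.91 ± 0.39 in SG (SD, n = 6 each). Without SG male 2 it was -0.99 (adjusted p = 0.00060).

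Of 14 endothelial markers, 5 were lower and 0 higher in YSGr, with a median log2 fold change of -0.50 (limma, 7 lower and 0 higher at an unadjusted p under 0.05). Of 15 markers of pericytes, fibroblasts and meninges, 4 were lower and 1 higher, with a median of -0.43 in the average, -0.73 in females and -0.05 in males. The shares over all genes were 5.27% lower and 6.16% higher. The 14 endothelial markers summed to 91.0 to 160 CPM in YSGr and 129 to 191 CPM in SG, and the 15 stromal markers to 200.2 to 502 CPM in YSGr and 451 to 633 CPM in SG, so that the genotypes overlapped in both sums. The highest YSGr value of both sums was that of YSGr male 8. The medians in YSGr and SG were 112 and 157 CPM for the endothelial sum and 284 and 517 CPM for the stromal sum. Of 17 astrocyte and neural stem cell markers, 6 were lower and 1 higher, with a median of -0.38 (limma, 8 lower and 1 higher at an unadjusted p under 0.05). These 17 summed to 2009 to 4480 CPM in YSGr (median 3699) and 2701 to 3984 CPM in SG (median 3120). No marker of the 3 lists was at 0 reads in either genotype. The part of these cells in the Wwtr1 result was not tested.

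Among the TEAD genes, Tead2 fell most in counts. Tead2 (ENSMUSG00000030796.17, chromosome 7, 45215753 to 45233644, plus strand) encodes the TEAD protein that is typical of embryonic and neural progenitor cells. It had 1777, 1402 and 1778 estimated reads in YSGr males and 1935, 2213 and 2488 in YSGr females, against 2807, 3834 and 2943 in SG males and 3147, 3190 and 3132 in SG females. The highest YSGr library, female 12, was below the lowest SG library, male 1, and the YSGr males were below all YSGr females. Mean log2 CPM was 7.64 ± 0.31 in YSGr and 8.39 ± 0.19 in SG (SD, n = 6 each), a log2 fold change of -0.75 ± 0.12 (SE, limma adjusted p = 0.0016). With neither SG male 2, which had the highest Tead2 value, nor YSGr male 8, which had the lowest, the fold change was -0.62 (adjusted p = 0.0016). Markers of the granule lineage also differed between the genotypes. Of the 15 progenitor markers, 7 were lower and 0 higher in YSGr, with a median log2 fold change of -0.51 (limma, 9 lower and 2 higher at an unadjusted p under 0.05). Of 14 markers of differentiating granule neurons, 4 were higher and 0 lower, with a median of 0.74 (6 and 0 at an unadjusted p under 0.05, and 2 higher without SG male 2). These 14 summed to 2452 to 4433 CPM in YSGr and 2104 to 2703 CPM in SG. The part of these cells in the Tead2 result was not tested.

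Tead3 (ENSMUSG00000002249.21, chromosome 17, 28331671 to 28350817, minus strand), a TEAD gene best known from placenta and epithelia, was low and even across libraries. It had 80, 70 and 66 estimated reads in YSGr males and 61, 65 and 68 in YSGr females, against 98, 89 and 96 in SG males and 112, 108 and 105 in SG females. The groups did not overlap, and the 2 genotypes were separated by 9 reads between YSGr male 7 and SG male 2. Mean log2 CPM was 2.88 ± 0.12 in YSGr and 3.45 ± 0.11 in SG (SD, n = 6 each), a log2 fold change of -0.58 ± 0.12 (SE, limma adjusted p = 0.0082).

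Tead1 (ENSMUSG00000055320.17, chromosome 7, 112679318 to 112906807, plus strand), a broadly expressed TEAD gene, lies on the same chromosome as Tead2. It had 1911, 1344 and 1644 estimated reads in YSGr males and 1471, 1145 and 1346 in YSGr females, against 1718, 625 and 1835 in SG males and 1710, 1729 and 1900 in SG females. SG male 2 was the lowest of the 12, while the other SG libraries were among the highest and overlapped the YSGr males. The log2 fold change was -0.06 ± 0.21 (SE, 95% interval -0.51 to 0.40, limma adjusted p = 0.89). Without SG male 2 it was -0.29 (adjusted p = 0.079). Without SG male 1, SG male 3, YSGr male 8 or YSGr female 11 its sign turned, at 0.05, 0.08, 0.00100 and 0.0024.

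Tead4 (ENSMUSG00000030353.15, chromosome 6, 128224288 to 128300823, minus strand), a TEAD gene with a known role in the trophectoderm and muscle, was near the limit of detection. It had 19, 6 and 13 estimated reads in YSGr males and 5, 9 and 3 in YSGr females, against 3, 2 and 6 in SG males and 5, 7 and 3 in SG females. YSGr males 7 and 9 and YSGr female 11 (3 of 6) lay above all SG libraries on the log2 CPM scale, and the other 3 YSGr libraries overlapped SG. The log2 fold change was 0.69 ± 0.34 (SE, 95% interval -0.04 to 1.42, limma adjusted p = 0.20). The prior count is part of this scale and makes the change of such a low gene look smaller. By CPM the YSGr mean was 2.06-fold the SG mean, a difference not past the test at this depth.

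Vgll4 (ENSMUSG00000030315.15, chromosome 6, 114860628 to 114969994, minus strand) had 478, 315 and 426 estimated reads in YSGr males and 472, 444 and 425 in YSGr females, against 576, 356 and 577 in SG males and 557, 590 and 581 in SG females. All YSGr libraries but male 8 lay between SG male 2 and the other 5 SG libraries, and YSGr male 8 lay below all SG libraries. The overlap thus came from SG male 2 alone. The log2 fold change was -0.35 ± 0.13 (SE, limma adjusted p = 0.096), with means of 5.48 ± 0.21 in YSGr and 5.83 ± 0.26 in SG (SD, n = 6 each). It passed the threshold without SG male 2, at -0.45 (adjusted p = 0.013), and without SG male 2 and YSGr male 8 together, at -0.37 (adjusted p = 0.0077). With library weights, which give less weight to libraries that fit their group poorly, it passed at -0.37 (adjusted p = 0.0012). With these weights 4986 of all 14147 genes passed, beside 1617 in the main fit.

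**Figure D2:**
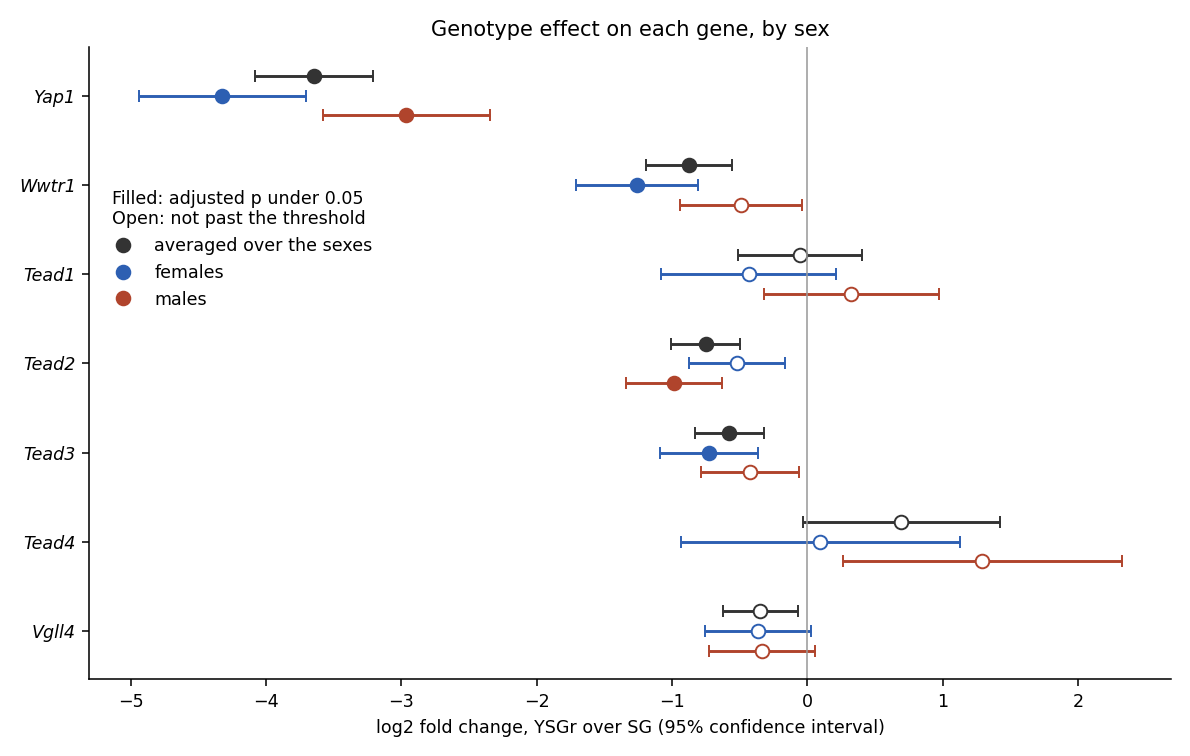
Log2 fold change of YSGr over SG for each gene with 95% confidence intervals, shown for both sexes averaged, for females and for males; filled points passed the threshold of 0.05 on the adjusted p. The Yap1 intervals lie far to the left of 0 in all 3 comparisons, the Tead1 intervals cross 0 in all 3, and the female and male intervals overlap for every gene except Yap1.

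The TEAD genes were also compared with each other within libraries, which cancels gene length and library size. The difference of log2 CPM between members of a pair was tested with an exact two-sided permutation of genotype within sex, over 400 arrangements that allow a smallest p of 0.005, and adjusted over the 6 pairs. The genotype change of Tead3 was 0.52 lower on the log2 scale than that of Tead1 (difference -0.52, exact p = 0.02, adjusted 0.04). The adjusted p of this pair leans on pairs with Tead4, which had smaller p-values and ranked before it among the 6. An adjustment without the Tead4 pairs was not made. Tead2 and Tead3 against Tead4 gave differences of -1.45 (exact p = 0.015, adjusted 0.04) and -1.27 (exact p = 0.01, adjusted 0.04). These 2 values rest on 2 to 7 Tead4 reads in each SG library, and on a gene that passed the filter on low values through YSGr alone. They are therefore given as a description. Tead2 against Tead1 differed by -0.70 (exact p = 0.05, adjusted 0.066), with -0.08 in females and -1.31 in males. Tead4 against Tead1 differed by 0.75 (exact p = 0.055, adjusted 0.066) and Tead2 against Tead3 by -0.18 (exact p = 0.32, adjusted 0.32). Without YSGr female 12, the pairs of Tead2 and Tead4 with Tead1 passed, at -0.73 and 0.90 (exact tests, adjusted p = 0.042 each). The limits given above for Tead4 hold for its pair with Tead1 as well. No pair passed without SG male 2: Tead3 against Tead1 had -0.29 (exact test, adjusted p = 0.075) and the pairs with Tead4 had -1.26 and -1.17 (exact tests, adjusted p = 0.06 each). The calls on the pairs that passed in the main fit also ended in most other alternative fits, taken over these pairs together. Fits that leave out a library have fewer arrangements.

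**Figure D3:**
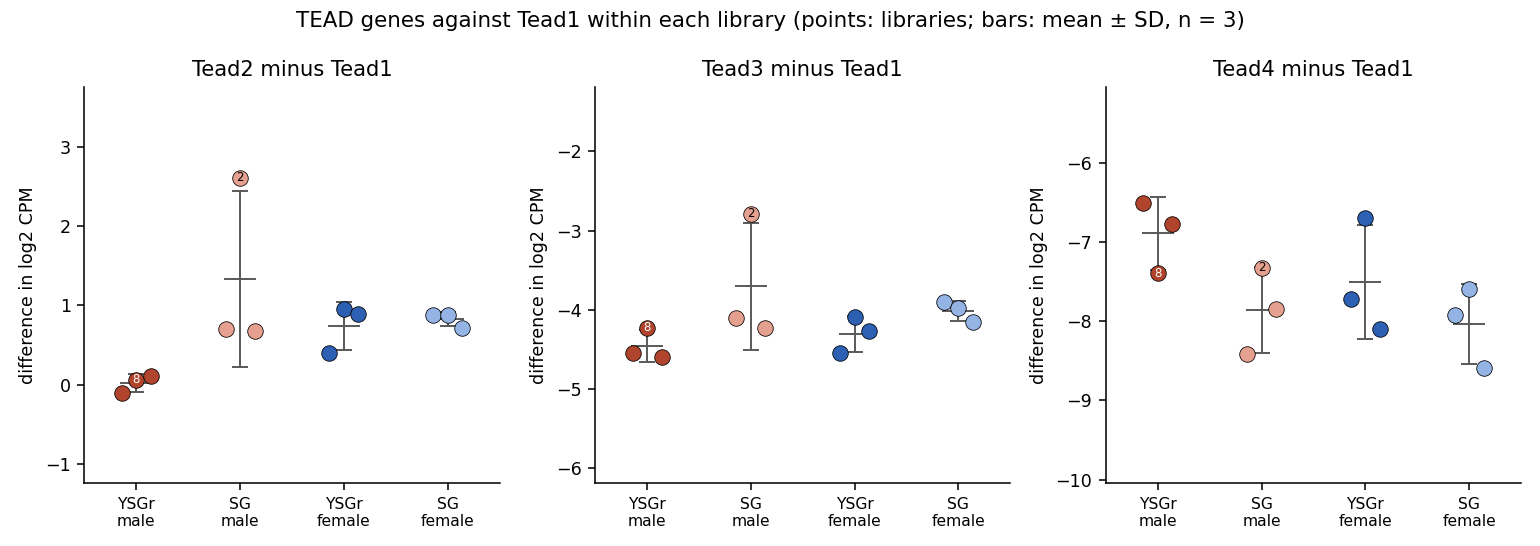
Difference in log2 CPM between Tead2, Tead3 or Tead4 and Tead1 within each library, by genotype and sex; points are libraries and bars the mean ± SD of 3. Apart from SG male 2, whose Tead1 value was low, the SG points for Tead2 minus Tead1 lie close together, and the YSGr males lie below them, near 0.

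Divided by the length of all annotated exons, levels of the genes could be set side by side. In YSGr tumours the order of mean CPM per kilobase was Tead2 (42.5), Tead1 (11.4), Vgll4 (8.33), Wwtr1 (3.45), Tead3 (1.10), Tead4 (0.322) and Yap1 (0.217). In SG tumours it was Tead2 (70.8), Tead1 (12.4), Vgll4 (10.7), Wwtr1 (6.47), Yap1 (2.42), Tead3 (1.64) and Tead4 (0.187). The order differed in the place of Yap1, last in YSGr and above Tead3 and Tead4 in SG. The ranges of Tead1 and Vgll4 overlapped in both genotypes, as did those of Tead4 and Yap1 in YSGr and of Vgll4 and Wwtr1 in SG. With the longest transcript as length, Vgll4 stood above Tead1, at 20.4 and 15.5 CPM per kilobase in YSGr and 26.2 and 16.9 in SG, and Yap1 reached 0.381 and Tead4 0.377 in YSGr.

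Tead2 made up most of the TEAD transcripts of both genotypes. Its share of the summed TEAD level was 70.0%, 72.3% and 73.3% in YSGr males and 77.1%, 82.6% and 82.4% in YSGr females, against 80.4%, 92.9% and 80.2% in SG males and 81.9%, 82.0% and 80.6% in SG females. The YSGr males lay below all other libraries, and the YSGr females overlapped SG. The share of Tead1 was the mirror image, at 21.1 ± 4.78% in YSGr and 14.8 ± 4.72% in SG (SD, n = 6 each), highest in the YSGr males at 23.9 to 26.6%. Tead3 held 2.03% in YSGr and 1.93% in SG, and Tead4 0.602% in YSGr and 0.221% in SG. Sums and shares over members chosen with results known were not tested.

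The summed TEAD level was 55.3 ± 8.83 CPM per kilobase in YSGr and 85.1 ± 7.34 in SG (SD, n = 6 each). All YSGr libraries, at most 70.0, lay below all SG libraries, at least 75.1. Yap1 and Wwtr1 together had 3.67 ± 0.572 CPM per kilobase in YSGr and 8.90 ± 1.92 in SG. The coactivator sum per TEAD sum was 6.84 ± 1.78% in YSGr and 10.5 ± 2.37% in SG, and SG male 2, at 6.28%, lay among the YSGr libraries. Wwtr1 held 94.2 ± 2.70% of the coactivator sum in YSGr and 72.2 ± 3.69% in SG, with no overlap. That sum holds the targeted gene Yap1, whose loss lowers the sum and raises the Wwtr1 share by itself. Wwtr1 alone stood at 3.45 CPM per kilobase in YSGr and 6.47 in SG. Vgll4 per TEAD sum was 15.2 ± 1.60% in YSGr and 12.7 ± 2.52% in SG, and these values overlapped, at 12.5 to 16.8% in YSGr and 7.69 to 14.7% in SG.

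**Figure D4:**
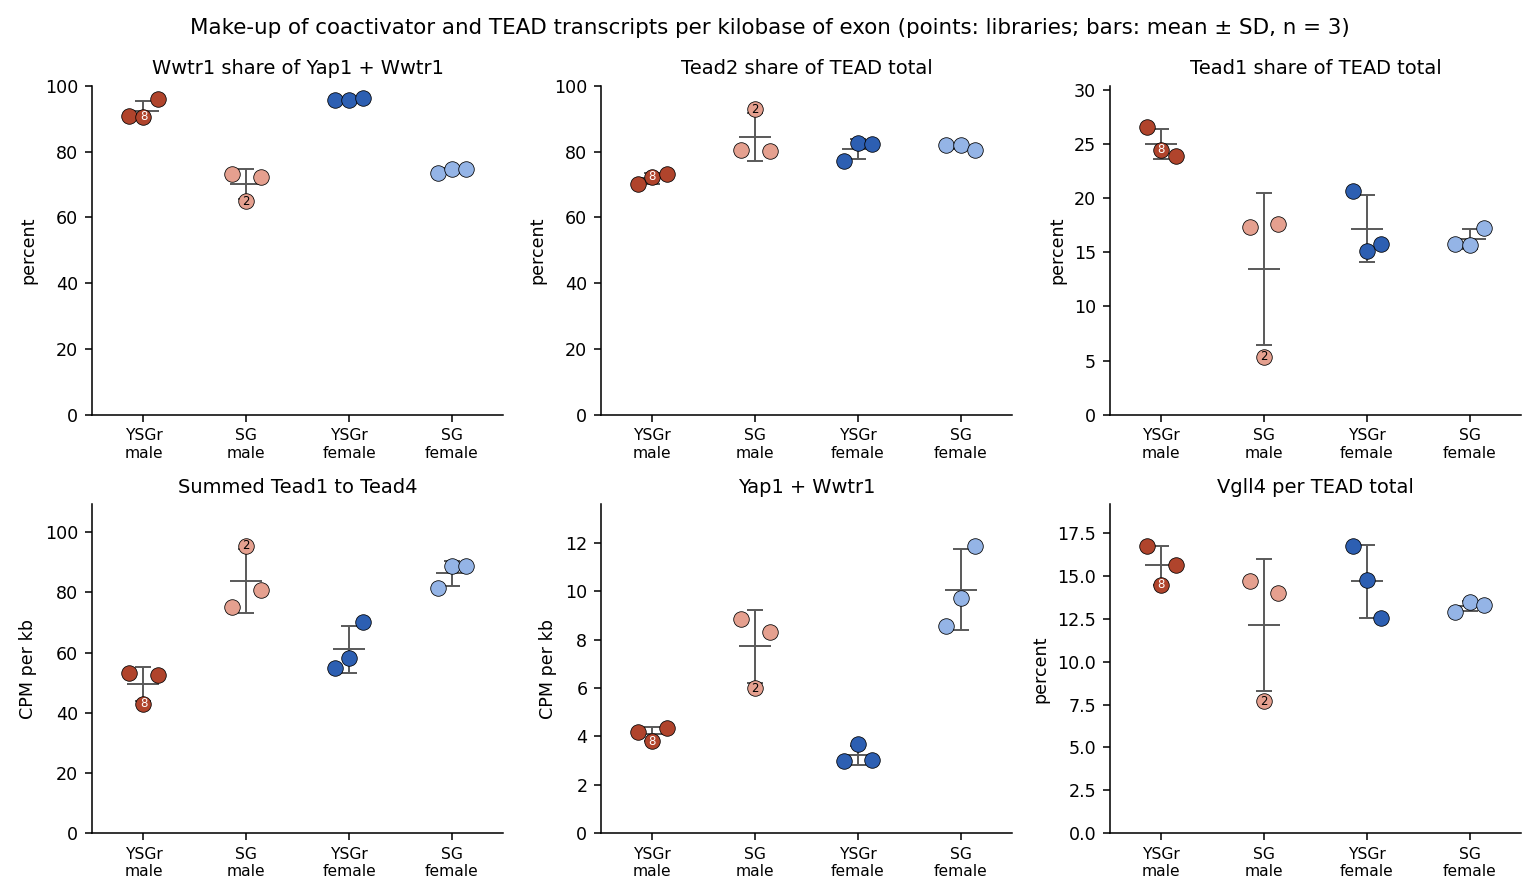
Shares (percent) and summed levels (CPM per kilobase of exon) of the coactivator and TEAD transcripts in the 12 libraries, by genotype and sex; points are libraries and bars the mean ± SD of 3. In the panel of Wwtr1 shares, the YSGr libraries sit at 90.6 to 96.5% and the SG libraries at 64.9 to 74.7%. These are shares of a sum that holds the targeted gene Yap1. In the panel of Tead1 shares the YSGr males lie above all other libraries.

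Within each sex, 3 of the 7 members passed in females, all lower in YSGr, against 1.87% of all genes passing downward there and 1.15% upward. The targeted gene Yap1, whose fall was set by the design, is among them. Upward, 0 members passed with limma, at an unadjusted p under 0.05 or with limma-voom. In females Yap1 changed by -4.32 (SE 0.29, limma adjusted p = 9.9e-06), a 24.0-fold lower CPM. Wwtr1 changed by -1.26 (SE 0.21, adjusted p = 0.0073), with mean log2 CPM of 3.88 ± 0.17 in YSGr and 5.15 ± 0.25 in SG (SD, n = 3 each). Tead3 changed by -0.73 (SE 0.17, adjusted p = 0.035). Tead2, at -0.52, did not pass (adjusted p = 0.13), although the 3 YSGr females were below the 3 SG females. It passed without SG male 2 (adjusted p = 0.034), which enters through the shared spread. Tead1 at -0.44 (adjusted p = 0.59), Tead4 at 0.09 (adjusted p = 0.97) and Vgll4 at -0.36 (adjusted p = 0.38) did not pass. With library weights, Tead2 (-0.68, adjusted p = 4.2e-05), Tead1 (-0.33, adjusted p = 0.036) and Vgll4 (-0.33, adjusted p = 0.011) passed in females. So did 4483 of all 14147 genes with these weights, beside 426 in the main fit. The Wwtr1 call ended without SG female 6 (-1.13, adjusted p = 0.056). The Tead3 call ended without SG male 1, SG male 3, SG female 4, SG female 5, SG female 6, YSGr female 10 or YSGr female 11 (-0.74 to -0.68, adjusted p = 0.059 to 0.16), and under quantile normalization (-0.71, adjusted p = 0.061).

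In males 2 of the 7 members passed, both lower in YSGr, against 3.42% of all genes passing downward and 4.43% upward. Here too the targeted gene Yap1 is among them. Upward, 0 members passed with limma or with limma-voom, and 1, Tead4, had an unadjusted p under 0.05. Tead4 entered the test through YSGr alone. Yap1 changed by -2.96 (SE 0.29, limma adjusted p = 0.00027), a 7.93-fold lower CPM. Tead2 changed by -0.99 (SE 0.17, adjusted p = 0.0078), with mean log2 CPM of 7.41 ± 0.16 in YSGr and 8.39 ± 0.30 in SG (SD, n = 3 each), and kept the call without SG male 2 (-0.82, adjusted p = 0.019). Wwtr1 at -0.49 (adjusted p = 0.14), Tead3 at -0.42 (adjusted p = 0.12), Vgll4 at -0.33 (adjusted p = 0.23), Tead1 at 0.32 (adjusted p = 0.48) and Tead4 at 1.29 (adjusted p = 0.097) did not pass. Without SG male 2, Wwtr1 had -0.72 (adjusted p = 0.054), Vgll4 -0.54 (adjusted p = 0.073) and Tead4 1.09 (adjusted p = 0.23), and the sign of Tead1 turned, to -0.15 (adjusted p = 0.57). Without YSGr male 8, Vgll4 had -0.18 (adjusted p = 0.58). With library weights, Wwtr1 (-0.68, adjusted p = 0.013) and Vgll4 (-0.41, adjusted p = 0.024) passed in males. So did 2326 of all 14147 genes with these weights, beside 1111 in the main fit. Tead4 had 1.42 with library weights (adjusted p = 0.046), given as a description because it entered the test through YSGr alone.

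The test of the sex difference itself, the female minus the male genotype effect, gave 0 calls among the 7 members with limma or with limma-voom. Yap1 and Wwtr1 (2 of 7) had an unadjusted p under 0.05. Of all genes, 0.00707% of all genes (1 gene) passed, or 11.6% at an unadjusted p under 0.05. The differences were -1.36 for Yap1 (SE 0.40, limma adjusted p = 0.43), -0.77 for Wwtr1 (SE 0.29, adjusted p = 0.43) and 0.47 for Tead2 (adjusted p = 0.44). They were -0.76 for Tead1 (adjusted p = 0.47), -1.20 for Tead4 (adjusted p = 0.47), -0.30 for Tead3 (adjusted p = 0.57) and -0.03 for Vgll4 (adjusted p = 0.97). Leaving out SG male 2 gave differences of -0.29 for Tead1 (adjusted p = 0.65), 0.30 for Tead2 (adjusted p = 0.61), -0.54 for Wwtr1 (adjusted p = 0.59) and 0.17 for Vgll4 (adjusted p = 0.77). The 95% interval of the Yap1 difference was -2.23 to -0.49 before adjustment, and with library weights it passed at -1.35 (adjusted p = 0.029). Of all 14147 genes, library weights called 675 for the sex difference and 1819 between the sexes within YSGr. Within YSGr, females against males differed by -1.18 for Yap1 (adjusted p = 0.14), which passed without YSGr male 9 (-1.52, adjusted p = 0.039) or without YSGr female 11 (-1.33, adjusted p = 0.025) and with library weights (-1.21, adjusted p = 0.0086), and by 0.47 for Tead2 (adjusted p = 0.19). Over all genes, 0.0778% passed between the sexes within YSGr, and 0 members did (2 at an unadjusted p under 0.05, 0 with limma-voom). Within SG, 0.0353% of all genes and 0 members passed (1, Wwtr1, at an unadjusted p under 0.05, 0 with limma-voom). A p that misses the threshold does not show that the sexes were alike.

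Other binding partners of TEAD, YAP and TAZ moved in both directions. Of 5 further TEAD cofactors, Fam181a and Fam181b entered the test, and Fam181a, whose product binds TEAD proteins, fell by 1.60 (log2 fold change -1.60, SE 0.22, limma adjusted p = 0.00084). Fam181a had 14, 14 and 7 estimated reads in YSGr males and 13, 11 and 9 in YSGr females, against 47, 50 and 38 in SG males and 25, 39 and 29 in SG females. All YSGr libraries were below all SG libraries. Among 7 tested transcription factors that bind YAP or TAZ besides TEAD were the Runt factors Runx1 and Runx3, which are best known from blood cells. Runx1 rose (1.19, SE 0.24, limma adjusted p = 0.0070). Runx3 had 14, 13 and 8 estimated reads in YSGr males and 15, 5 and 9 in YSGr females, against 0, 3 and 4 in SG males and 0, 0 and 2 in SG females. It passed the filter through YSGr alone (5 YSGr and 0 SG libraries), so its fitted change of 1.93 (adjusted p = 0.0066) is given as a description. Smad3, a TGF-beta effector, fell (-0.54, SE 0.14, adjusted p = 0.028), a call that ended without SG male 1, SG male 3, SG female 5, SG female 6 or YSGr female 11 (-0.52 to -0.48, adjusted p = 0.058 to 0.082). Macrophage and monocyte markers summed to 467 to 868 CPM in YSGr and 220.1 to 291 CPM in SG, and their part in the Runx1 and Runx3 values was not tested.

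Upstream of YAP, 4 of 23 Hippo pathway genes fell and 0 rose, with a median of -0.17, against 5.27% of all genes lower and 6.16% higher. Leaving out SG male 2 gave 9 lower and 0 higher. At an unadjusted p under 0.05, limma had 5 lower and 1 higher. Ajuba and Limd1, LIM proteins that bind and restrain the LATS kinases, changed by -1.96 (SE 0.19, limma adjusted p = 8.9e-05) and -0.58 (SE 0.11, adjusted p = 0.0041). Wwc1 and Wwc2, which encode KIBRA and its paralog, scaffolds that activate the kinases, changed by -0.57 (SE 0.11, adjusted p = 0.0057) and -0.69 (SE 0.19, adjusted p = 0.036). The Wwc2 call ended in 9 of 12 fits that left out 1 library (adjusted p = 0.054 to 0.099), and not without SG male 2, YSGr male 8 or YSGr female 11. Downstream, the list of YAP and TAZ target genes shares Amotl2, Lats2 and Ptpn14 with the upstream list, and both lists have the same median. Of the 21 target genes tested, 1 rose and 1 fell, with a median of -0.17. This was close to the 6.16% higher and 5.27% lower of all genes (3 higher and 6 lower had an unadjusted p under 0.05). With SG male 2 left out, 1 passed upward and 3 downward. The gene that rose was Myof, a membrane repair protein (1.51, adjusted p = 0.023), and the one that fell was Nt5e, the ectoenzyme CD73 (-0.96, adjusted p = 0.0070). The Myof call ended without SG female 5, SG female 6 or YSGr female 10 (adjusted p = 0.057 to 0.063) and without SG male 2 and YSGr male 8 together (1.06, adjusted p = 0.061).

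How the members varied between libraries of 1 group was described by the correlation of deviations from the 4 group means, over 12 libraries that share depth and preparation. Tead1 and Vgll4 deviated together (r = 0.90, and 0.80 without SG male 2). Wwtr1 followed Tead1 (r = 0.73) and Vgll4 (r = 0.75) much less without SG male 2, at 0.12 and 0.41. Among 10783 genes with mean log2 CPM above 3, the genes most like Tead1 were Lca5 (r = 0.99), Iqgap1 (0.98) and Asxl1 (0.98), and those most like Vgll4 were Sertad2 (0.99), Klhl20 (0.97) and Ikbkg (0.97). The genes most like Tead2 were Ndufb11 (0.99), Rps3 (0.98) and Ift46 (0.98). For Wwtr1 they were Nid1 (0.95), which encodes the basement membrane protein nidogen, Abhd2 (0.94) and Abcc9 (0.93), a pericyte marker, and for Tead3 Capza2 (0.96), Mmp15 (0.93) and Gas2 (0.93). For Yap1, whose deviations in YSGr rest on 7 to 33 reads, they were Cep250 (0.95), Cs (0.92) and Afap1l1 (0.91), and for Tead4, at 2 to 19 reads, Brpf1 (0.91), Nemp2 (0.90) and Prkcq (0.90). Without SG male 2 the values of the genes named for each member ran from 0.85 (Abhd2) to 0.99 (Ndufb11). All were picked as the highest among 10783 genes over 12 libraries, and picking by itself makes such values high.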

How the data were processed

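RNA-seq of total RNA from tumour tissue was sequenced at BGI on the BGISEQ-500, per the labels. The authors deposited 1 table of log2 CPM for 15672 genes and 12 libraries. The submitters' processing notes name Trimmomatic 0.33, RSEM 1.2.12, Bowtie2, Picard 1.95, edgeR 3.30.3 and the build mm10. No annotation and no use of strand is named in them, so reads of overlapping antisense transcripts cannot be told apart.

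Turned back from log2, values lay on equal steps above a floor of -2.24, as a prior count of 2 gives, and 92.1 to 93.1% of the estimated reads per library were whole within 0.02. Each read was worth 0.100 to 0.111 CPM, and 3 reads in 1 library, taken as the floor of detection, 0.301 to 0.333 CPM. No 2 libraries were identical (0 pairs).

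The deposited log2 CPM were fitted in limma 3.58.1 (R 4.3.3), with 1 coefficient per genotype and sex, a spread shared by all 12 libraries, a mean-variance trend and Benjamini-Hochberg adjustment over the 14147 genes with log2 CPM above 0 in at least 3 libraries. Pairs of TEAD genes were tested by exact permutation within sex. Levels between genes used exon length from GENCODE M21 (mm10), with the longest transcript as alternative. Named genes are the 7 members, the 3 genes most like each, and up to 4 called members of each list by smallest p, or the 2 with the largest mean where none was called. The members and lists were chosen with earlier results of these data known. Alternatives were other filters on low values, log2(CPM + 1), centred medians, quantile normalization, no trend, library weights, voom on the estimated reads, and leaving out each library. Leaving out SG male 2 and YSGr male 8 together, and the fits of list genes without each library, were added after seeing the data. Promoter sequences are from RefSeq (GRCm38.p6).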

Additional observations from a re-analysis of the deposited data

Results flagged for a closer look

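In each genotype, the highest and lowest of the 6 libraries were compared with the nearest of the others relative to the whole range (Dixon's criterion at 95%). Of 32 groups of values tested, 7 held a library that stood apart, and chance gives about 1 in 20. For the 7 genes themselves this was so in 3 of 14 groups.

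SG male 2 stood apart in 6 of the 7. On the log2 CPM scale its Tead1 level was 6.12 (others of SG 7.44 to 7.70) and its Vgll4 level 5.31 (others 5.83 to 6.01). Its Tead1 share of the TEAD sum was 5.36% (others 15.7 to 17.6%) and its Tead2 share 92.9% (others 80.2 to 82.0%). Its Wwtr1 share of the coactivator sum was 64.9% (others 72.3 to 74.7%), and its Vgll4 level per TEAD sum was 7.69% (others 12.9 to 14.7%). YSGr male 8 stood apart in Vgll4, at 5.07 on that scale (others of YSGr 5.47 to 5.64).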

How the results depend on the processing

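No paired analysis was possible because the labels number the libraries 1 to 12 without repeats. Averaged over the sexes, Yap1, Wwtr1, Tead2 and Tead3 kept their direction and call in all 23 alternatives (log2 fold changes of -3.78 to -3.13, -1.02 to -0.81, -0.81 to -0.62 and -0.66 to -0.53). Tead4 has no value under the stricter filter (log2 CPM above 1 in at least 6 libraries).

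Library weights raised the genes called to 4986 in the average, 4483 in females, 2326 in males, 675 for the sex difference, and 28 within SG and 1819 within YSGr between the sexes. They turned the sign of Tead1 in males (-0.023) and of the Vgll4 sex difference (0.079), and quantile normalization turned that of Tead3 between the sexes within YSGr (0.12). The cause was not tested.

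Leaving out 1 library gave 903 to 2087 calls in the average (the fewest, 903, with SG female 6 left out, 919 for SG female 5 and 1030 for YSGr female 10), 94 to 785 in females, 289 to 1665 in males, 1 to 115 for the sex difference (115 without YSGr female 11) and 9 to 1029 between the sexes within YSGr (1029 without YSGr female 11). Signs turned for Tead1 in the average (-0.29 to 0.078) and in males (-0.15 to 0.59), Tead2 between the sexes within SG (-0.11 to 0.17), Tead4 in females (-0.19 to 0.35) and the Vgll4 sex difference (-0.18 to 0.17). The TEAD pairs ran from -0.86 to -0.38 (Tead2 minus Tead1), -0.65 to -0.29 (Tead3 minus Tead1), 0.55 to 0.90 (Tead4 minus Tead1), -0.24 to -0.09 (Tead2 minus Tead3), -1.63 to -1.26 (Tead2 minus Tead4) and -1.45 to -1.12 (Tead3 minus Tead4). Without SG male 2 and YSGr male 8 together, females had 1267 calls, males 247 and the sexes within YSGr 19. Tead4 minus Tead1 was then 1.01, Tead3 minus Tead1 -0.35, Tead2 minus Tead4 -1.40 and Tead3 minus Tead4 -1.36, none past the exact test (adjusted p = 0.10 each, with fewer arrangements), Tead1 in males was -0.03 and the Vgll4 sex difference 0.02.

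With the longest transcript as length, the Tead3 share was 2.81% in YSGr and 2.67% in SG, the TEAD sum 78.0 and 120.2 CPM per kilobase, the Yap1 and Wwtr1 sum 10.8 in SG, the Wwtr1 share 90.5% and 60.2%, and Vgll4 per TEAD sum 26.4% in YSGr and 22.0% in SG. Depth limits Tead4 and Yap1 in YSGr, where values rest on 3 to 33 reads. The intervals given here come from the limma fits on log2 CPM and cover the spread among these libraries.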

Other observations

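The following genes were picked out after their values were seen. In males, 4 of 21 tested YAP and TAZ target genes rose in YSGr and 1 fell, against 4.43% of all genes rising there, and in females 0 passed with limma (at an unadjusted p under 0.05, 1 was higher and 7 were lower). Besides Myof at 2.20 (limma adjusted p = 0.032), these were Crim1, a transmembrane protein that binds growth factors (1.20, adjusted p = 0.038), and Dock5 (1.26, adjusted p = 0.045) and Arhgef17 (1.34, adjusted p = 0.045). Their female values were 0.81 for Myof, 0.14 for Crim1, -0.56 for Dock5 and -0.06 for Arhgef17, and the female minus male difference did not pass for any of the 4 (adjusted p = 0.43 to 0.46). Without SG male 2 none of the 4 passed in males, at 1.63 for Myof, 0.95 for Crim1, 1.12 for Dock5 and 1.18 for Arhgef17 (adjusted p = 0.10 to 0.14), nor without YSGr male 8, at 1.88, 0.81, 0.87 and 0.83 (adjusted p = 0.12 to 0.16).

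Fam181b, the second FAM181 cofactor of TEAD, fell in males (-0.65, limma adjusted p = 0.046) and had -0.08 in females (adjusted p = 0.92), with a difference of 0.57 that did not pass (adjusted p = 0.43). The male call ended without SG male 2 (-0.43, adjusted p = 0.099) and in 8 of the 11 other fits that left out 1 library. Vgll3, a cofactor of the same family as Vgll4 that did not enter the test, had 5, 19 and 3 estimated reads in YSGr males and 0, 2 and 3 in YSGr females, against 1, 2 and 3 in SG males and 5, 4 and 2 in SG females. The 19 reads in YSGr male 8 were the only count above 5.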
